A study of Mus musculus with 2 samples.

Results

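Antiviral effector genes were followed through 2 single-cell RNA sequencing libraries of immune cells from mouse pancreatic tumors. The genes were chosen by symbol: Rsad2, Cmpk2, Mx1, Mx2, Isg20, Ifitm1, Ifitm2, Ifitm3, Ifitm6 and Bst2. Of these 10, the 8 other than Mx1 and Mx2 matched an entry among the 32285 genes listed for both libraries, and Mx1 and Mx2 were not analysed here. Tumors came from male C57BL/6J mice, 5 to 6 weeks old when bought, that had K210 cells implanted in the pancreas. K210 is a cell line from a tumor of a Pdx1-Cre mouse, in which Cre recombinase acts in the pancreatic lineage and which carried Trp53 fl/fl among its alleles, so every tumor started from 1 line. One group received PBS, and the other received cmExoaCD11b, which are exosomes of mouse embryonic fibroblasts loaded with IL-12 mRNA and with cGAMP, an agonist of the STING pathway, and coated with antibodies to CD11b. Dosing began 7 days after implantation, with 5 µg of cGAMP per mouse, and immune cells of 3 mice per group were pooled 48 h after treatment. Each group is therefore 1 library, mouse differences within a pool cannot be seen, and IL-12 mRNA, cGAMP, antibody and carrier cannot be told apart.

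These genes belong to the response to type I and type III interferon, in which receptor signaling activates transcription factors that bind interferon-stimulated response elements in promoters. Their products act at different steps of a viral life cycle. Rsad2 encodes viperin, which makes a chain-terminating nucleotide, and Cmpk2, its neighbor in the genome, encodes a mitochondrial nucleotide kinase. Isg20 encodes an exonuclease that degrades RNA. Ifitm1, Ifitm2 and Ifitm3 encode membrane proteins that hinder the fusion of viral envelopes with host membranes, and Ifitm6 is a mouse member of the same family. Bst2 encodes tetherin, which holds budding virions on the cell surface and is a known surface marker of plasmacytoid dendritic cells and plasma cells. In mice without infection, such genes serve as readouts of interferon exposure.

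The promoters below show how the genes differ in the interferon-related letters near their start sites. They are RefSeq sequences of GRCm38.p6, 250 bases before to 50 bases after the annotated start, written along the strand of the gene, and all 8 genes had an entry. The files of the study name no genome build, and the genes were matched by symbol. Capitals mark matches to either of 2 motifs. The first is GAAA, any 2 bases and GAAA again on either strand, the core of an interferon-stimulated response element. The other is TTC, any 3 bases and GAA, a palindrome of interferon-responsive promoters, which reads the same on both strands. Matches that overlap run together. Rsad2 at chr12:26456403-26456702 (minus strand) and Cmpk2 at chr12:26468965-26469264 (plus strand) point away from each other. Ifitm3 at chr7:141010695-141010994 and Ifitm6 at chr7:141016843-141017142 (both minus strand) lie close together in the Ifitm cluster, and Bst2 lies at chr8:71537423-71537722 (minus strand).
Rsad2: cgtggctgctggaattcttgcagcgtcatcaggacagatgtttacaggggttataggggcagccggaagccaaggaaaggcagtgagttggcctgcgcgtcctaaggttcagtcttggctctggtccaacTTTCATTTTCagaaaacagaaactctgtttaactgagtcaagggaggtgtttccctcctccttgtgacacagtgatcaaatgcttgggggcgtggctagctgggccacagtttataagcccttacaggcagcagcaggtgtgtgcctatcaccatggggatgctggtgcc
Cmpk2: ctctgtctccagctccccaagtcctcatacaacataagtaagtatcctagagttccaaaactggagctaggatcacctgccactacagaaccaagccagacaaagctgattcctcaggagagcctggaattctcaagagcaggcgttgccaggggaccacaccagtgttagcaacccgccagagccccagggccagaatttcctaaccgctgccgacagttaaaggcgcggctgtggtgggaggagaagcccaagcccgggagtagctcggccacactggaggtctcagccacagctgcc
Ifitm3: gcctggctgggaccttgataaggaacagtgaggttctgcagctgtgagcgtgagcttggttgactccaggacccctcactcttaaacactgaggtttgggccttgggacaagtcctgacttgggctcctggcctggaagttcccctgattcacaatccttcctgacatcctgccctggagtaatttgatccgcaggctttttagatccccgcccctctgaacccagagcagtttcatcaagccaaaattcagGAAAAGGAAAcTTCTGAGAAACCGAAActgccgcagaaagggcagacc
Ifitm6: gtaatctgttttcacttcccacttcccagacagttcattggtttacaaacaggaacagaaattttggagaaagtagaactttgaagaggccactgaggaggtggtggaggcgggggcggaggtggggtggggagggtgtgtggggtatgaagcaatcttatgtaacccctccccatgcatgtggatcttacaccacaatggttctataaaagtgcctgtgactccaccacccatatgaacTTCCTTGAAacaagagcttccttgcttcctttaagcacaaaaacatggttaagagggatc
Bst2: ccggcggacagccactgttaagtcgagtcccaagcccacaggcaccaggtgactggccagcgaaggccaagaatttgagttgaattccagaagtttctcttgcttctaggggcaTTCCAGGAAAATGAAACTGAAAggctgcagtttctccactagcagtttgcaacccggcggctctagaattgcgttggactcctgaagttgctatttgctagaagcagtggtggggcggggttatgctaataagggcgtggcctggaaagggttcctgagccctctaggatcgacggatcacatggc
The GAAA motif was found in 4 of the 8 genes, at 1 position in Rsad2 and Ifitm2 and at 2 positions in Ifitm3 and Bst2 (overlapping in Bst2), against 3.44% of all 32851 promoters in the table. The match of Rsad2 starts 120 bases before the annotated start, those of Bst2 130 and 124 bases before it, and those of Ifitm3 lie just after it. The TTC motif was found in Ifitm3 and Bst2, where it overlaps the GAAA motif, in Ifitm6 and in 1 of the 3 Isg20 promoters, against 8.30% of all promoters. Neither was found in the windows of Cmpk2 and Ifitm1. A match is a description of the letters and not evidence of binding.

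The PBS library held 67143628 unique molecular identifiers (UMIs, 1 per captured transcript) and the cmExoaCD11b library 81288480, and 6817 and 7049 cells were kept. Only 16 cell barcodes occurred in both. Cells were assigned to classes by counting listed marker genes whose UMIs exceeded what free RNA from broken cells would give, and the classes are called "-like" because the names rest on these markers. Mature neutrophil-like cells numbered 2835 in PBS and 2197 in cmExoaCD11b, and immature neutrophil-like cells, in which at least 2 of the granule genes Ngp, Camp and Ltf were counted, 1054 and 1765. There were 234 and 256 monocyte-like, 290 and 91 macrophage-like, 39 and 79 conventional dendritic cell (cDC)-like, 261 and 266 B cell-like and 43 and 112 plasma cell-like cells. T cells divided into 145 and 342 CD8 T cell-like, 135 and 223 CD4 T cell-like and 122 and 274 other T cell-like cells, and there were 29 and 108 NK cell-like and 49 and 34 epithelial cell-like cells. In no class were 1565 PBS cells (23.0%) and 1279 cmExoaCD11b cells (18.1%). Leading genes included C1qa and Apoe in macrophage-like, Vcan and Ccr2 in monocyte-like, Cd79a in B cell-like, Jchain in plasma cell-like and Krt8 in epithelial cell-like cells. The mature neutrophil-like class was led by inflammatory genes such as Cxcl3, Il1b and Cxcl2, and its S100a8 level was 23405 CPM in PBS and 32860 CPM in cmExoaCD11b.

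Levels are given as counts per 1000000 UMIs of a class (CPM) with exact Poisson 95% intervals, ratios as cmExoaCD11b over PBS with exact conditional 95% intervals, and shares of cells with exact Clopper-Pearson 95% intervals. All intervals cover counting error only. With 1 library per treatment, differences between them could not be set against replicate error or tested. Ratios were formed in the 11 classes with at least 30 cells in each library, and a gene was read as different when it was at least 2-fold higher or lower with at least 20 UMIs in both libraries together. Of the 86 ratios with that many UMIs, 74 were above 1, 45 were at least 2-fold higher and 1 was at least 2-fold lower in cmExoaCD11b. Among all genes, 2.51% to 10.7% were at least 2-fold higher and 2.18% to 7.64% at least 2-fold lower, depending on the class. Their median ratio lay between 0.926 and 1.19. The share of all genes above 1 was not counted, so counts of ratios above 1, here and below, have no background beside them.

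**Figure D1:**
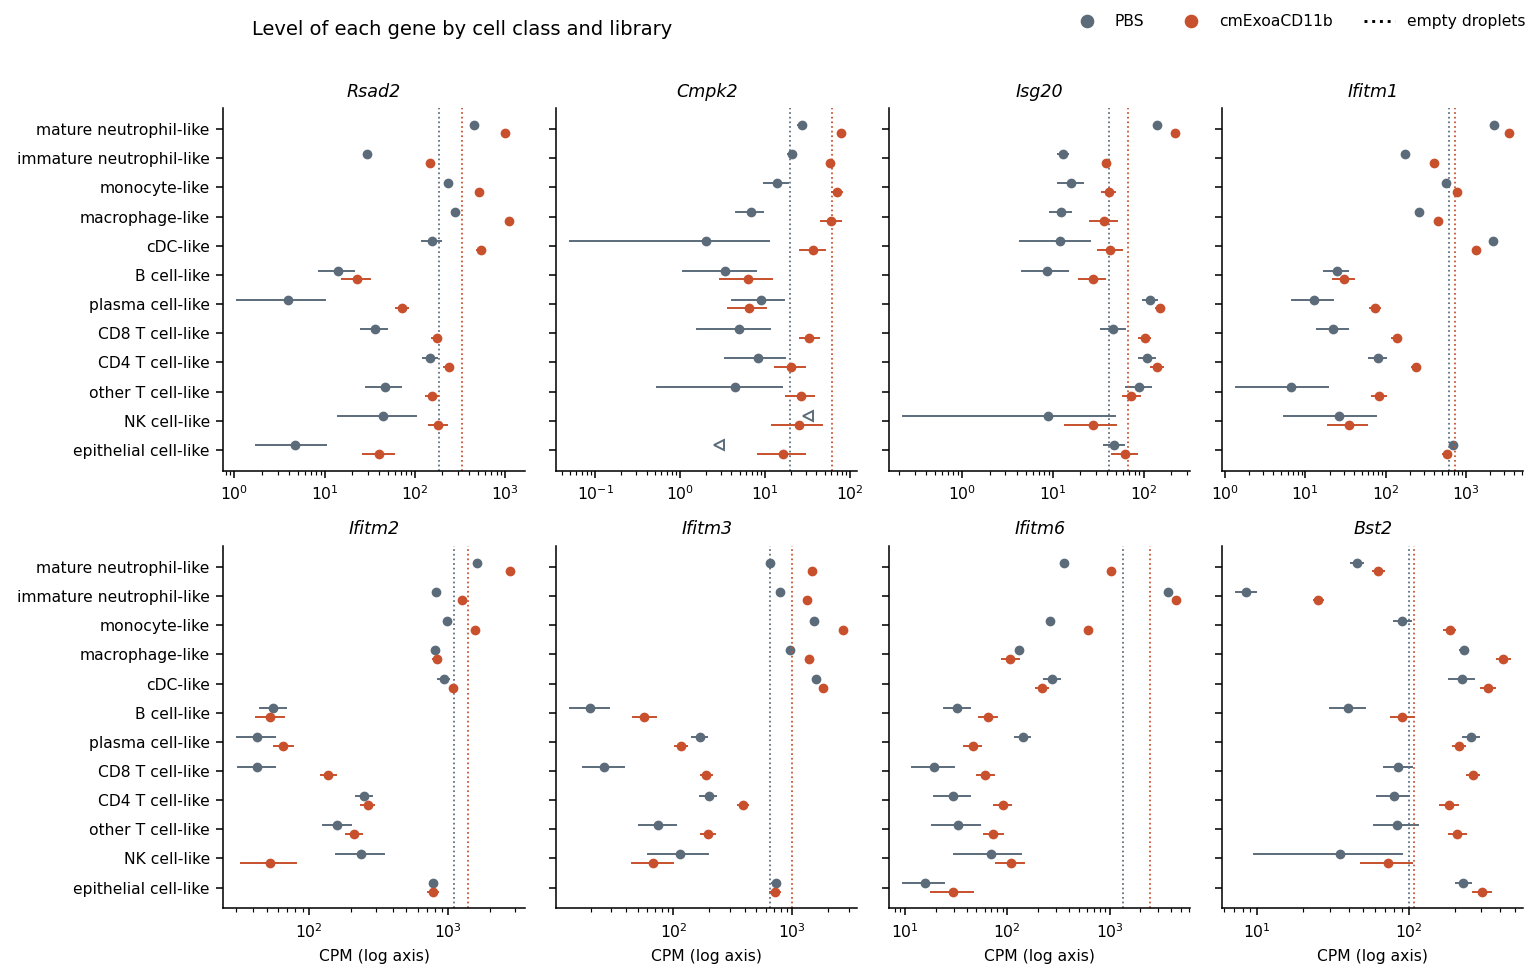
Level of each gene in CPM (log axis) in 12 cell classes, with points for the PBS and cmExoaCD11b libraries, lines for Poisson 95% intervals, dotted lines for the level in empty droplets, and open triangles at the upper limit where a gene had 0 UMIs. Ifitm6 in immature neutrophil-like cells reached 3702 and 4495 CPM, while Bst2 was lowest there.

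Rsad2 was highest in mature neutrophil-like cells of PBS and in macrophage-like cells of cmExoaCD11b. In PBS its level was 450.4 CPM (438 to 463) in mature neutrophil-like, 279 CPM in macrophage-like, 231 CPM in monocyte-like and 153 CPM in cDC-like cells, with 4 separate intervals, and CD4 T cell-like cells at 147 CPM (122 to 175) overlapped the cDC-like cells. Immature neutrophil-like cells had 29.7 CPM, B cell-like cells 13.9 CPM and plasma cell-like cells 3.93 CPM. In cmExoaCD11b, macrophage-like cells led with 1085 CPM (1021 to 1152), followed by mature neutrophil-like cells with 985 CPM (965 to 1006). That order rests on few cells, since 5 of the 91 macrophage-like cells held 45.9% of the UMIs, against 4.80% in mature neutrophil-like cells. With every cell thinned to 1000 UMIs, the shares of cells with Rsad2 overlapped, at 36.5% (26.3 to 47.6%) and 33.6% (31.5 to 35.6%). cDC-like cells at 534 CPM and monocyte-like cells at 508 CPM did not differ beyond their counting intervals, and B cell-like cells were lowest at 22.5 CPM. Empty droplets held 185 CPM of Rsad2 in PBS and 327 CPM in cmExoaCD11b.

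Cmpk2 was led by mature neutrophil-like cells in both libraries. It reached 26.9 CPM in mature neutrophil-like cells of PBS, then 20.3 CPM in immature neutrophil-like and 13.6 CPM in monocyte-like cells, the last of these overlapping the second. In cmExoaCD11b, mature neutrophil-like (77.9 CPM), monocyte-like (70.2 CPM), macrophage-like (59.8 CPM) and immature neutrophil-like cells (57.4 CPM) formed a run in which each interval overlapped the next. Epithelial cell-like cells of PBS had 0 Cmpk2 UMIs in 1280531.

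Isg20 had a different order, with lymphoid cells near the top. Mature neutrophil-like (139 CPM), plasma cell-like (118 CPM), CD4 T cell-like (110.0 CPM) and other T cell-like cells (89.9 CPM) led in PBS, and each interval overlapped the next. In cmExoaCD11b the mature neutrophil-like cells stood alone with 222 CPM (212 to 232), ahead of plasma cell-like cells with 153 CPM and CD4 T cell-like cells with 141 CPM. B cell-like cells had the lowest level in both libraries, 8.62 and 27.4 CPM, which overlapped that of NK cell-like cells.

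Among the Ifitm genes, Ifitm1 and Ifitm2 were highest in mature neutrophil-like cells in both libraries. Ifitm1 was at 2257 CPM (2229 to 2286) there in PBS, level with cDC-like cells at 2146 CPM (2020 to 2278), and at 3444 CPM in cmExoaCD11b, where cDC-like cells had 1348 CPM. Immature neutrophil-like cells had only 175 and 404 CPM of Ifitm1. Ifitm2 was at 1615 and 2770 CPM in mature, and at 818 and 1251 CPM in immature neutrophil-like cells.

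Ifitm3 instead led in cDC-like (1598 CPM) and monocyte-like cells (1515 CPM) of PBS, which overlapped, and in monocyte-like cells of cmExoaCD11b, with 2670 CPM (2616 to 2725). Epithelial cell-like cells carried Ifitm1, Ifitm2 and Ifitm3 at 690, 781 and 728 CPM in PBS. B cell-like cells had 19.9 CPM of Ifitm3 in PBS and 56.9 CPM in cmExoaCD11b.

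Ifitm6 was highest in the immature neutrophil-like class. Its levels there were 3702 CPM (3674 to 3729) and 4495 CPM (4472 to 4518) for PBS and cmExoaCD11b, against 358 and 1036 CPM in mature neutrophil-like cells, the next class in both libraries. It was also among the 10 leading genes of the immature class, beside Ltf, Camp and Ngp, which had defined it. Epithelial cell-like cells were lowest, at 15.6 and 29.6 CPM. In the 9 classes of cmExoaCD11b other than the neutrophil-like and monocyte-like ones the level was at or below 249.9 CPM, which is what a 10% share of free RNA would give, since empty droplets held 1348 CPM in PBS and 2499 CPM in cmExoaCD11b.

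Bst2 was lowest where Ifitm6 was highest. Plasma cell-like (257 CPM), macrophage-like (231 CPM), epithelial cell-like (229 CPM) and cDC-like cells (223 CPM) led in PBS with overlapping intervals, and immature neutrophil-like cells were lowest at 8.47 CPM. Macrophage-like cells led in cmExoaCD11b with 419 CPM (379 to 461), and immature neutrophil-like cells were again lowest at 25.3 CPM. Plasmacytoid dendritic cell-like cells, the usual home of Bst2, numbered 0 and 2, too few for a level.

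The patterns of the genes over the 22 profiles of class and library were compared by Pearson's r of log2(CPM + 10), as a description, since profiles of 1 library share free RNA and depth. Ifitm2 and Ifitm3 were most alike (r = 0.922), followed by Ifitm1 and Ifitm2 (0.901). Rsad2 and Cmpk2 had r = 0.734, Isg20 was at most 0.272 with any other of the 8, and Ifitm6 and Bst2 had r = −0.507. Among 11124 other genes, those most like Rsad2 were Chmp4b (0.887), Gpr146 and 4930599N23Rik, and those most like Cmpk2 were the oligoadenylate synthetase Oas3 (0.911), Ppp1r15b and Txnl4b. Gcnt2 was nearest to Ifitm1 (0.939) and to Ifitm2 (0.943), Ifitm2 to Ifitm3, Pram1 to Ifitm6 (0.947), Itm2c to Bst2 (0.871) and Ubb to Isg20 (0.725). Arf2, Tnfrsf1a and Apobr, Tspo and Chmp2a, F630028O10Rik and 6430548M08Rik, Irgm2 and Igtp, and Copa and Mvb12a made up the next places for Ifitm1, Ifitm2, Ifitm3, Ifitm6, Isg20 and Bst2.

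**Figure D2:**
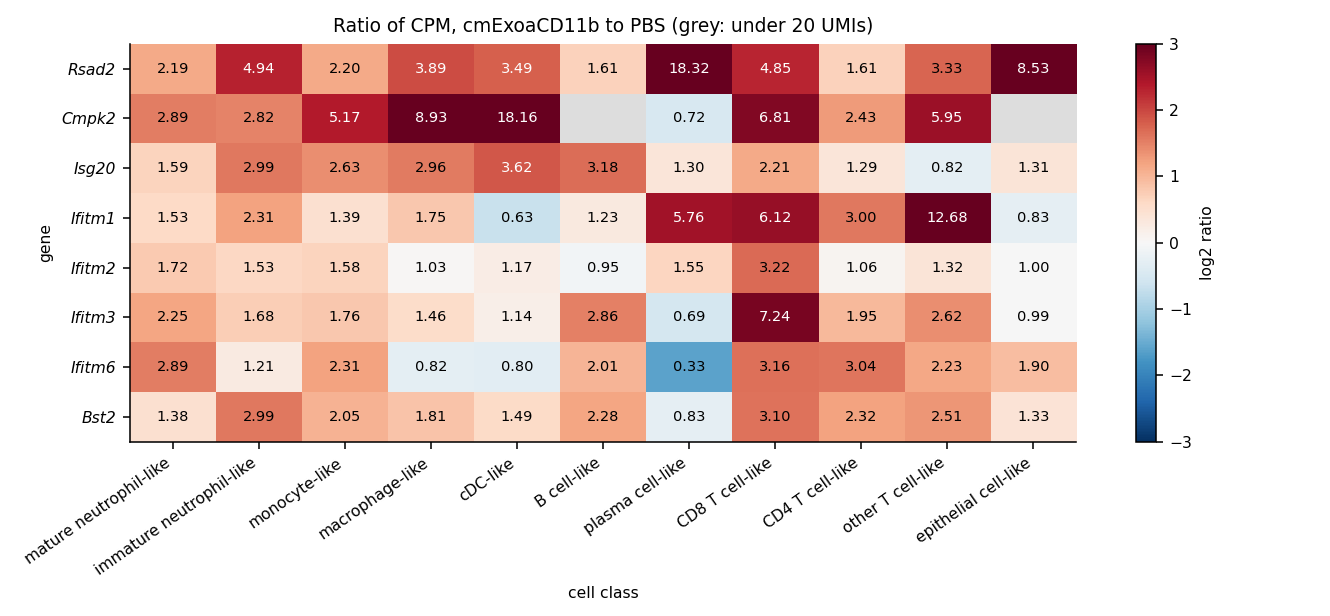
Ratio of CPM in cmExoaCD11b to PBS for each gene (rows) in each cell class (columns), printed in the cells and colored by log2 ratio, with fewer than 20 UMIs in grey. Mature neutrophil-like cells have 8 ratios above 1, from 1.38 for Bst2 to 2.89 for Cmpk2 and Ifitm6.

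In mature neutrophil-like cells, all 8 genes were higher in cmExoaCD11b, and 4 of them at least 2-fold. Across all genes tested in that class, 6.38% were at least 2-fold higher and 6.2% at least 2-fold lower, while 0 of the 8 were lower. Rsad2 went from 450.4 to 985 CPM (ratio 2.19, 2.11 to 2.26), Cmpk2 from 26.9 to 77.9 CPM (2.89, 2.52 to 3.32) and Ifitm6 from 358 to 1036 CPM (2.89, 2.787 to 3.003). Ifitm3 went from 649 to 1463 CPM (2.25, 2.19 to 2.32). When only the ranked-UMI cut-off was used to call cells, the Ifitm6 ratio was 1.66, under the 2-fold limit, and that of Bst2 was 2.36. The remaining 4 were higher by less than the 2-fold limit, with ratios of 1.72 for Ifitm2, 1.59 for Isg20, 1.53 for Ifitm1 and 1.38 for Bst2. The median of the 8 ratios was 1.95, against 1.00 over all genes tested.

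The larger levels came with more cells carrying a transcript and, for most genes, with more UMIs in such cells. After every cell was thinned to 1000 UMIs, which left out 75 shallower mature neutrophil-like cells in each library, Rsad2 was found in 15.1% (13.8 to 16.5%) of PBS and 33.6% (31.5 to 35.6%) of cmExoaCD11b cells. Without thinning the shares were 22.7% and 48.6%, at median depths of 3155 and 2968 UMIs. B cell-like cells, in which Rsad2 was near its lowest level, gave 2.42% and 2.34% after thinning, at median depths of 3523 and 4048 UMIs. Among cells with an Rsad2 UMI, the mean number was 3.29 UMIs in PBS and 3.51 in cmExoaCD11b. This mean was also higher in cmExoaCD11b for Ifitm1 (4.24 and 5.70), Ifitm2 (2.77 and 3.76), Ifitm3 (1.83 and 2.32) and Ifitm6 (1.77 and 2.19). It differed less for Isg20 (1.38 and 1.46) and Bst2 (1.16 and 1.19), and was lower for Cmpk2 (1.31 and 1.22). The share with Ifitm6 went from 14.5% to 36.9%, that with Ifitm3 from 33.7% to 60.5% and that with Ifitm2 from 58.1% to 82.3%, whereas B cell-like cells had 4.44% and 11.7%, 4.03% and 6.25%, and 5.65% and 6.25%. For Bst2 the shares of 4.28% (3.55 to 5.10%) and 4.90% (4.02 to 5.91%) overlapped and lay at or below those of B cell-like cells, 4.84% and 7.42%.

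**Figure D3:**
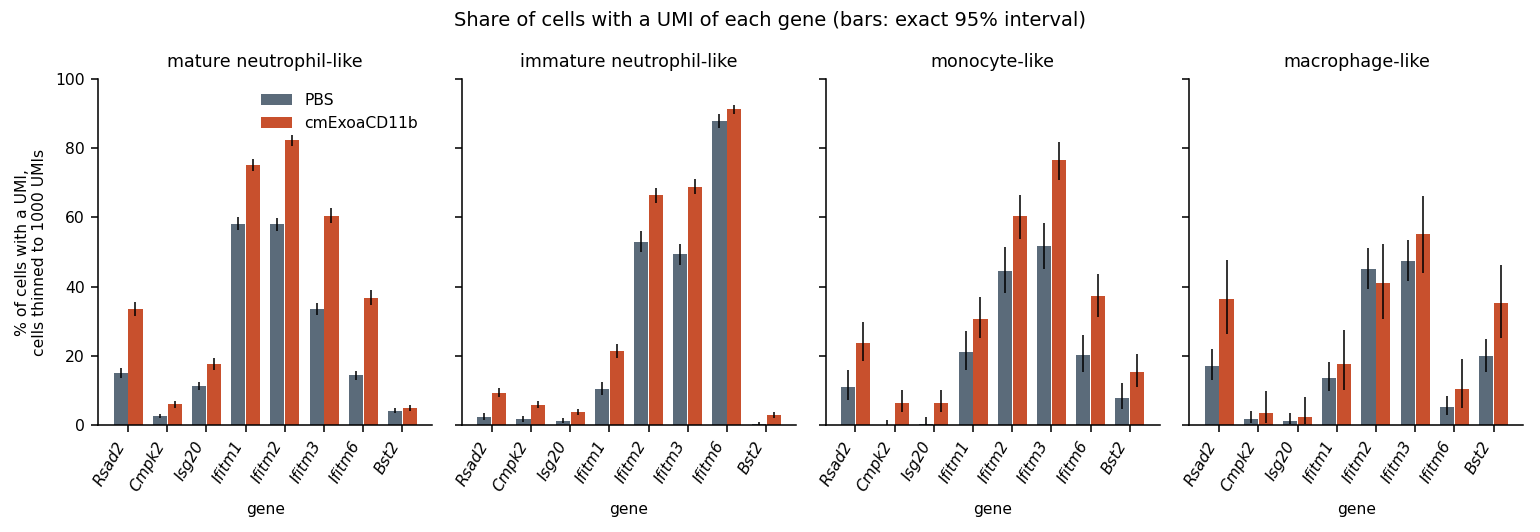
Percentage of cells with at least 1 UMI of each gene after every cell was thinned to 1000 UMIs, in 4 classes, with bars for the PBS and cmExoaCD11b libraries and lines for exact 95% intervals. Rsad2 in mature neutrophil-like cells stands at 15.1% and 33.6%.

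The makeup of this class differed between the libraries. Retnlg, a resistin-like gene of neutrophils, was at 6466 CPM in PBS and 13578 CPM in cmExoaCD11b, and Ngp at 939 and 1424 CPM. The class was therefore divided by whether Retnlg exceeded free RNA, and cells rich in the granule genes Elane, Mpo, Prtn3 and Ctsg were left out, both after the data had been seen. Of 1004 PBS and 1246 cmExoaCD11b cells with Retnlg, Rsad2 had 413 and 1001 CPM (ratio 2.42, 2.30 to 2.56). In 1811 and 929 cells without it, Rsad2 had 523 and 1301 CPM (2.49, 2.37 to 2.61). Cmpk2 was likewise more than 2-fold higher in both, with ratios of 3.40 and 2.50.

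The other 6 genes were also higher in both groups of cells, by amounts that varied. Ifitm1 was 1.14-fold higher (3541 to 4044 CPM) in cells with Retnlg and 2.18-fold higher (1555 to 3396 CPM) in cells without it, and Ifitm2 1.39-fold and 2.11-fold. Ifitm6 was 2.01-fold higher with Retnlg (779 to 1565 CPM) and 3.07-fold higher without it (83.2 to 255 CPM), where Ngp was also 1.66-fold higher. A 10% share of free RNA would give 134.8 and 249.9 CPM of Ifitm6. Its levels in cells without Retnlg were thus below that share in PBS and close to it in cmExoaCD11b. Bst2 went the other way, 2.14-fold with Retnlg and 1.40-fold without it. Isg20 had ratios of 1.52 and 1.94, and Ifitm3 of 2.01 and 2.18. The differences between these ratios were not tested.

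**Figure D4:**
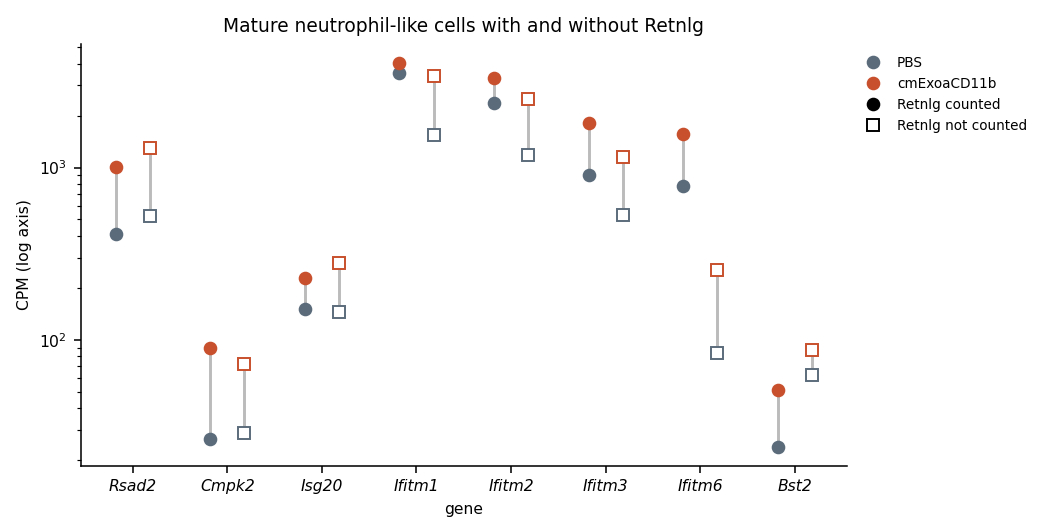
CPM (log axis) of each gene in mature neutrophil-like cells with Retnlg (filled circles) and without it (open squares), colored by library, with grey lines joining PBS to cmExoaCD11b. All 16 pairs are higher in cmExoaCD11b, by 1.14-fold for Ifitm1 with Retnlg up to 3.40-fold for Cmpk2 with Retnlg.

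Immature neutrophil-like cells had deep profiles, with medians of 15122 and 14586 UMIs, although plasma cell-like cells were deeper, at 23338 and 22989. All 8 genes were higher in cmExoaCD11b, but the median over all genes was also above 1 (1.15). At least 2-fold higher were 5 of them, where 6.31% of all genes were at least 2-fold higher and 2.18% at least 2-fold lower. Rsad2 went from 29.7 to 147 CPM (ratio 4.94, 4.53 to 5.40), Isg20 from 12.99 to 38.8 CPM (2.99), Bst2 from 8.47 to 25.3 CPM (2.99), Cmpk2 from 20.3 to 57.4 CPM (2.82) and Ifitm1 from 175 to 404 CPM (2.31). The genes with the highest levels differed least, at 1.68 for Ifitm3, 1.53 for Ifitm2 and 1.21 (1.20 to 1.23) for Ifitm6, beside a median of 1.15 over all genes. A 10% share of free RNA would give 18.5 and 32.7 CPM of Rsad2 and 10.0 and 10.9 CPM of Bst2, so the PBS levels of these 2 genes lie near it. With doublets kept, the Rsad2 ratio was 2.50, and with that free RNA subtracted it was 10.2.

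In thinned immature neutrophil-like cells, Rsad2 was found in 2.50% (1.64 to 3.65%) of PBS and 9.44% (8.11 to 10.9%) of cmExoaCD11b cells, and in 13.9% and 38.4% without thinning. The PBS share was level with that of B cell-like cells, 2.42%, while the cmExoaCD11b share was above their 2.34%. Cmpk2 went from 1.73% to 5.95%, with 0.403% and 0.781% in B cell-like cells. Ifitm6 was found in 88.0% and 91.2%.

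In mature neutrophil-like cells, Cmpk2 was found more often in cells with Rsad2 than in cells without it. Of mature neutrophil-like PBS cells thinned to 1000 UMIs, 13.9% of the 417 with Rsad2 also had Cmpk2, against 0.598% of the 2343 without it. In cmExoaCD11b the shares were 13.5% of 712 cells and 2.27% of 1410 cells. Isg20 followed the same course, with 34.3% and 7.21% in PBS and 33.6% and 9.57% in cmExoaCD11b. Among macrophage-like PBS cells, Cmpk2 was in 1 of 49 cells with Rsad2 and 4 of 237 without it, and among monocyte-like PBS cells in 0 of 25 and 0 of 201. In cmExoaCD11b it was in 3 of 31 and 0 of 54 macrophage-like cells, and in 10 of 59 (16.9%) and 6 of 188 (3.19%) monocyte-like cells. Immature neutrophil-like cells had Cmpk2 in 2 of 26 and 16 of 1012 cells in PBS, and in 15.2% of 165 and 4.99% of 1582 cells in cmExoaCD11b. Ifitm1 in mature neutrophil-like cells of PBS was found in 59.5% of cells with Rsad2 and 57.9% of cells without it, and in 81.9% and 71.8% in cmExoaCD11b. In immature neutrophil-like cells these shares were further apart, at 34.6% of 26 cells and 9.88% of 1012 cells in PBS and 51.5% of 165 cells and 18.2% of 1582 cells in cmExoaCD11b. These shares are descriptions of cells of 1 library each.

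In monocyte-like cells, all 8 genes were higher in cmExoaCD11b, beside a median of 1.07 over all genes. At least 2-fold higher were 5 of them, where 6.01% of all genes were at least 2-fold higher and 4.68% at least 2-fold lower. Cmpk2 went from 13.6 to 70.2 CPM (ratio 5.17, 3.65 to 7.52), Isg20 from 15.8 to 41.4 CPM (2.63), Ifitm6 from 264 to 610 CPM (2.31), Rsad2 from 231 to 508 CPM (2.20, 2.01 to 2.42) and Bst2 from 90.6 to 185 CPM (2.05, and under 2 with several other settings, down to 1.66 in thinned cells). Ifitm3, Ifitm2 and Ifitm1 had ratios of 1.76, 1.58 and 1.39. Rsad2 was found in 11.1% (7.29 to 15.9%) and 23.9% (18.7 to 29.7%) of thinned cells, and in 27.8% and 53.9% unthinned. In PBS and cmExoaCD11b, 5 cells held 44.7% and 30.8% of the Rsad2 UMIs and 45.9% and 33.2% of the Cmpk2 UMIs. S100a8 was at 4317 and 7369 CPM in this class and Elane at 1290 and 1153 CPM. The neutrophil markers Retnlg and Ngp were lower, at 57.2 and 59.5 CPM and at 178 and 217 CPM. The source of these transcripts and their part in the ratios were not tested. Without the 62 PBS and 104 cmExoaCD11b cells that held at least 2 markers of another class, the ratios of Isg20, Ifitm6 and Bst2 were 1.65, 1.61 and 1.95, so that 2 genes remained at least 2-fold higher, Rsad2 (2.30) and Cmpk2 (5.60).

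In macrophage-like cells, Rsad2, Cmpk2 and Isg20 were at least 2-fold higher and the Ifitm genes and Bst2 were not. Rsad2 went from 279 to 1085 CPM (ratio 3.89, 3.59 to 4.23), Cmpk2 from 6.70 to 59.8 CPM (8.93, 5.69 to 14.3) and Isg20 from 12.3 to 36.5 CPM (2.96, 1.90 to 4.58). Of all genes in the class, 5.94% were at least 2-fold higher and 6.12% at least 2-fold lower. Bst2 (1.81), Ifitm1 (1.75) and Ifitm3 (1.46) were higher by less, Ifitm2 was level at 804 and 828 CPM (1.03, 0.954 to 1.11) and Ifitm6 had a ratio of 0.818 (0.659 to 1.01). The 5 cells with most UMIs held 45.9% of the Rsad2 UMIs in cmExoaCD11b, and 25.9% in PBS. In thinned cells, Rsad2 was found in 17.1% (12.95 to 22.0%) and 36.5% (26.3 to 47.6%), with median depths of 14867 and 8152 UMIs before thinning. This class held 176 PBS and 43 cmExoaCD11b cells with at least 2 markers of a second class. Without them the ratio was 2.71 for Rsad2 and 6.16 for Cmpk2, Ifitm3 (2.09) and Ifitm6 (2.74) passed the 2-fold limit, Ifitm1 turned to 0.638, and Isg20 had too few UMIs for a value. In thinned cells the ratios of Ifitm6 (2.06) and Bst2 (2.04) were close to that of Rsad2 (2.24). Ifitm6, however, was found in only 15 of 286 and 9 of 85 thinned cells. Before thinning, its levels of 131 and 107 CPM were under the 134.8 and 249.9 CPM that a 10% share of free RNA would give. Neutrophil RNA was lower in cmExoaCD11b, with the summed neutrophil markers at 4443 and 1611 CPM and S100a8 at 3876 and 1316 CPM, and its part in these ratios was not tested.

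cDC-like cells, 39 and 79 in number, combined higher and lower genes. Rsad2 went from 153 to 534 CPM (ratio 3.49, 2.75 to 4.49), Isg20 from 6 to 43 UMIs (3.62, 1.53 to 10.4) and Cmpk2 from 1 to 36 UMIs (18.2, 3.06 to 737), and these were the 3 genes at least 2-fold higher, with 8.84% of all genes. Bst2 had a ratio of 1.49, Ifitm2 of 1.17, Ifitm3 of 1.14 and Ifitm6 of 0.804. Ifitm1 was lower in cmExoaCD11b, at 2146 and 1348 CPM (0.628, 0.579 to 0.681), a difference short of the 2-fold limit, which 5.34% of all genes passed in that direction. In PBS, 50.9% of the Ifitm1 UMIs and 89.6% of the Rsad2 UMIs came from 5 cells, and 44.3% and 58.0% in cmExoaCD11b.

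In CD8 T cell-like cells, all 8 genes were at least 2-fold higher in cmExoaCD11b, where 5.08% of all genes were at least 2-fold higher and 4.16% at least 2-fold lower. In PBS, however, Ifitm1, Ifitm2, Ifitm3 and Ifitm6 were at or below a 10% share of free RNA in this class, as were Ifitm2 and Ifitm6 in cmExoaCD11b. Rsad2 went from 35.9 to 174 CPM (ratio 4.85, 3.44 to 7.01), Bst2 from 85.4 to 265 CPM (3.104, 2.47 to 3.94), Isg20 from 46.6 to 103 CPM (2.21, 1.603 to 3.101) and Cmpk2 from 5 to 61 UMIs (6.81). Bst2 was the most widespread of them, found in 6.94% (3.38 to 12.4%) of PBS and 22.0% (17.7 to 26.8%) of cmExoaCD11b cells after thinning, with 38.6% and 50.3% before it. Rsad2 was found in 1 of 144 and 34 of 337 thinned cells, 0.694% and 10.1%, against 2.42% and 2.34% of B cell-like cells, and Bst2 in B cell-like cells was at 4.84% and 7.42%. Summed plasma cell markers in this class were at 69.9 CPM in PBS and 891 CPM in cmExoaCD11b, with Jchain at 18.4 and 387 CPM, and their part in the Bst2 and Isg20 ratios was not tested. Thinned, the Isg20 ratio was 1.28, and with the ranked-UMI cut-off only, that of Bst2 was 1.94.

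The Ifitm genes of CD8 T cell-like cells rested on few cells. The ratios were 7.24 for Ifitm3, 6.12 for Ifitm1, 3.22 for Ifitm2 and 3.16 for Ifitm6, but in cmExoaCD11b 5 cells held 82.1% of the Ifitm1 UMIs, 71.1% of those of Ifitm3 and 61.0% of those of Ifitm2. Neutrophil genes were higher in the same library, with S100a8 at 450.2 and 1013 CPM and Elane at 19.4 and 560 CPM, and their part in these ratios was not tested. After thinning, Ifitm1 was found in 3.47% and 4.75% of cells and Ifitm2 in 5.56% and 5.34%, with overlapping intervals. Without the 10 and 32 cells that held at least 2 markers of a second class, the ratios were 1.76 for Ifitm1, 1.84 for Ifitm2, 4.18 for Ifitm3, 3.99 for Rsad2 and 3.34 for Bst2. Ifitm6 turned below 1 with the ranked-UMI cut-off only (0.547) and with doublets kept (0.707).

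CD4 T cell-like cells had 4 genes at least 2-fold higher, Ifitm6 (3.04), Ifitm1 (79.2 to 238 CPM), Cmpk2 (2.43) and Bst2 (2.32), where 4.6% of all genes were at least 2-fold higher and 4.41% at least 2-fold lower. Bst2 went from 79.2 to 184 CPM, and Rsad2 from 147 to 236 CPM (ratio 1.61, 1.301 to 2.002). With doublets kept, the ratios of Ifitm1 and Ifitm6 were 1.49 and 1.06, and with the ranked-UMI cut-off only, that of Bst2 was 1.41. Of the Ifitm1 UMIs, 85.1% in PBS and 88.9% in cmExoaCD11b came from 5 cells. The other T cell-like cells had 6 at least 2-fold higher, with 6.77% of all genes, and 0 at least 2-fold lower, with 3.03% of all genes. Among the 6 was Ifitm6 (2.23), which at 32.9 and 73.3 CPM was also below a 10% share of free RNA. Ifitm1 went there from 3 to 99 UMIs (12.7, 4.21 to 62.5), Cmpk2 from 2 to 31 UMIs (5.95, 1.51 to 51.3), Rsad2 from 46.1 to 153 CPM (3.33) and Bst2 from 83.3 to 209 CPM (2.51), while Isg20 was at 89.9 and 73.3 CPM (0.815, 0.556 to 1.21). The Ifitm1 ratio was 1.53 with free RNA subtracted and 2.60 with doublets kept, 5 cells held 66.7% of its UMIs in cmExoaCD11b, and its PBS level was under a 10% share of free RNA. Elane was at 37.3 and 1306 CPM and Mpo at 13.2 and 737 CPM in the other T cell-like cells, and their part in these ratios was not tested.

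In B cell-like cells the 8 genes were low, at most 90.6 CPM. With 7 genes of at least 20 UMIs, Isg20 (3.18), Ifitm3 (2.86), Bst2 (2.28) and Ifitm6 (2.01) were at least 2-fold higher, where 2.51% of all genes were at least 2-fold higher and 3.67% at least 2-fold lower. The levels of Rsad2 and the 4 Ifitm genes were at or below a 10% share of free RNA in both libraries, while Bst2 (39.8 and 90.6 CPM), Isg20 (8.62 and 27.4 CPM) and Cmpk2 (5 and 9 UMIs) were above it. With doublets kept, only Bst2 remained at least 2-fold higher (2.22), and Ifitm1 turned to 0.449.

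Plasma cell-like cells held the 1 gene at least 2-fold lower in any class. Ifitm6 was at 141 CPM in PBS and 46.1 CPM in cmExoaCD11b (ratio 0.326, 0.253 to 0.419), where 2.99% of all genes were at least 2-fold lower. In PBS 5 cells held 93.1% of its UMIs, S100a8 was at 4269 CPM in PBS and 1302 CPM in cmExoaCD11b, and with a gate at 20% free RNA the ratio was 1.60. Ifitm3 (166 to 115 CPM) and Bst2 (257 to 214 CPM) were also lower. Rsad2 (3.93 to 71.9 CPM, ratio 18.3) and Ifitm1 (12.8 to 73.5 CPM, 5.76) were at least 2-fold higher, with 10.7% of all genes, but 5 cells held 93.4% and 87.0% of their UMIs in cmExoaCD11b. Both genes were under a 10% share of free RNA in PBS, and in cmExoaCD11b Ifitm1 was level with that share, 73.3 CPM. The Rsad2 ratio was 3.19 with at least 3 markers and 2.82 with the gate at 20% free RNA. Isg20, spread over more cells, had 118 and 153 CPM (1.30, 1.05 to 1.60).

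In epithelial cell-like cells the Ifitm genes were near level. Ifitm2 had 781 and 777 CPM (ratio 0.996, 0.894 to 1.11), Ifitm3 728 and 720 CPM (0.989, 0.884 to 1.10) and Ifitm1 690 and 576 CPM (0.835, 0.739 to 0.941). Rsad2 was the 1 gene at least 2-fold higher, with 6 and 27 UMIs (8.53, 3.45 to 25.3), where 2.58% of all genes were at least 2-fold higher and 7.64% at least 2-fold lower. Of those 27 UMIs, 92.6% came from 5 cells. A 10% share of free RNA would give 18.5 and 32.7 CPM of Rsad2, above its PBS level of 4.69 CPM and near its cmExoaCD11b level of 40.0 CPM. After thinning, Rsad2 was found in 2 of 45 PBS and 1 of 34 cmExoaCD11b cells. Cmpk2 had 0 UMIs in PBS and 11 in cmExoaCD11b, under the minimum of 20, so no fold is given.

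NK cell-like cells had 29 cells in PBS, so no ratio was formed. Rsad2 had 5 UMIs in PBS (43.7 CPM, 14.2 to 102) and 72 in cmExoaCD11b (180 CPM, 141 to 227), Bst2 4 (34.9 CPM) and 29 (72.6 CPM), and Ifitm2 27 (236 CPM) and 21 (52.6 CPM). Of the 27 Ifitm2 UMIs, 96.3% came from 5 cells.

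Ifitm2 counts carry a limit of their own. Of the stretches of 90 bases in the last 500 bases of its GENCODE transcript, 26.5% also occur in transcripts of Gm11951, Gm45717 or Gm8865, so reads there could be split or dropped, whereas 0 stretches of the other 7 genes were found in another gene.

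Beyond the 8 genes, 34 other interferon-stimulated genes, a list chosen with earlier results of these data known, were read in the same way. In mature neutrophil-like cells, 30 of the 33 with at least 20 UMIs were at least 2-fold higher, in immature neutrophil-like and monocyte-like cells 31 of 33, and in macrophage-like cells 31 of 34, beside 6.38%, 6.31%, 6.01% and 5.94% of all genes. Their median ratios were 2.88, 4.97, 4.61 and 4.20, against 1.95, 2.56, 2.13 and 1.78 for the antiviral genes and 1.00, 1.15, 1.07 and 1.05 for all genes. The largest ratios were those of Ms4a4c (2.64 to 37.5 CPM, 14.2) and Phf11d in mature, Ms4a4c and Ifit3 (2.21 to 28.5 CPM, 12.9) in immature neutrophil-like cells, Ifit3 (6.60 to 77.1 CPM, 11.7) and Ifit3b in monocyte-like, and Ifi44 (1.08 to 25.3 CPM, 23.5) and Oas3 in macrophage-like cells. The ratio of Ifi44, from 1.08 CPM in PBS, rests on few UMIs, and no intervals are given for this list. The smallest were Samd9l (1.75) and Oasl2 in mature, Cxcl10 (1.25) and Samd9l in immature neutrophil-like, Ifi27l2a (1.29) and Ly6e in monocyte-like, and Ifi27l2a (1.11) and Cxcl10 in macrophage-like cells.

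In the lymphoid and tumor classes fewer of these genes were at least 2-fold higher, with 20 of 29 in B cell-like, 22 of 31 in CD8 T cell-like, 12 of 32 in CD4 T cell-like, 13 of 31 in other T cell-like, 11 of 21 in plasma cell-like and 11 of 25 in epithelial cell-like cells. cDC-like cells had 14 of 34. In the same order, the share of all genes was 2.51%, 5.08%, 4.6%, 6.77%, 10.7%, 2.58% and, in cDC-like cells, 8.84%. Oas1a (5.86) and Ifit1bl1 (5.71) led in CD8 T cell-like cells, and Oas2 (2.37 to 16.1 CPM, 6.79) and Oas1a (4.23) in CD4 T cell-like cells. Usp18 (4.39 to 61.5 CPM, 14.0) and Oasl1 (6.72) led in other T cell-like cells, and Ifih1 (2.95 to 93.8 CPM, 31.8) and Ifit2 in plasma cell-like cells. Ifit3 (8.85) and Ifit1 (5.29) led in epithelial cell-like cells, and Oas1a (1.99 to 18.3 CPM, 9.18) and Oas2 in B cell-like cells. Such folds from a few CPM rest on few PBS UMIs, since the other T cell-like class held 455999 UMIs in PBS and the plasma cell-like class 1018372. In cDC-like cells Oas3 and Ifi44 had 0 UMIs in PBS and 27.1 and 44.1 CPM in cmExoaCD11b. Among the smallest ratios were Ifit1 (0.651) and Ifit1bl1 (0.743) in cDC-like, Ifit1bl1 (0.689) and Ifit2 (0.738) in other T cell-like, Trim30a (0.421) and Irf7 (0.702) in epithelial cell-like, Cxcl10 (0.764) and Ly6e (1.46) in B cell-like, Zbp1 (1.05) in plasma cell-like, Ly6e (1.01) and Oasl2 (1.19) in CD8 T cell-like, and Ly6e (1.10) and Ifi47 (1.11) in CD4 T cell-like cells. Trim30a, at 14.1 and 5.92 CPM in epithelial cell-like cells, was the 1 gene of the list at least 2-fold lower in any class. That class held 675244 UMIs in cmExoaCD11b, so the Trim30a level there rests on few UMIs. Trim30a was 1 of the 25 list genes read there, and 7.64% of all genes were at least 2-fold lower in that class.

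**Figure D5:**
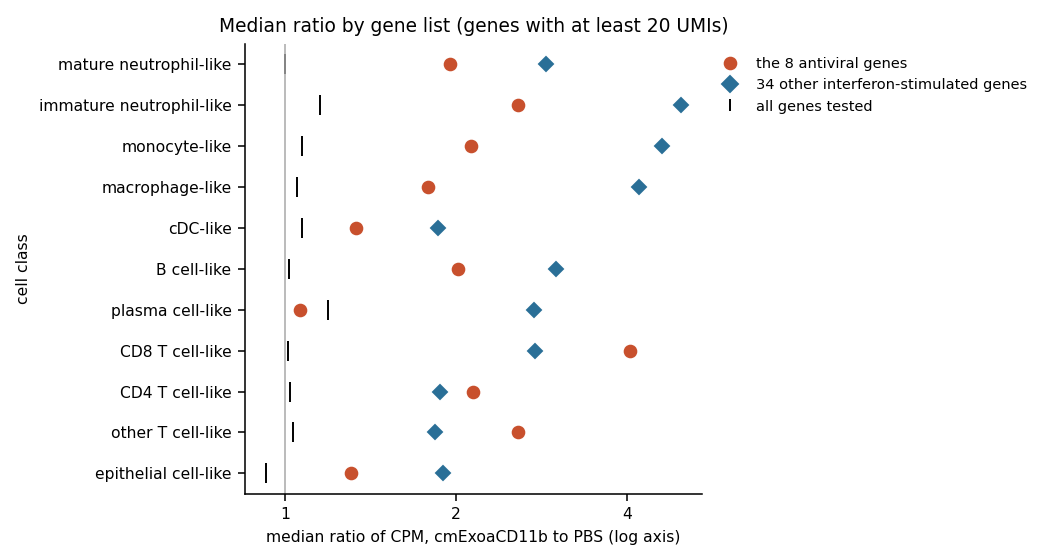
Median ratio of CPM in cmExoaCD11b to PBS (log axis) in each cell class for the 8 antiviral genes, for 34 other interferon-stimulated genes and for all genes tested, counting genes with at least 20 UMIs. The antiviral genes lie between 1.06 in plasma cell-like and 4.03 in CD8 T cell-like cells, and all genes between 0.926 and 1.19.

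Of the interferons, Ifnb1 was found in few cells and Ifng in many T cells. Ifnb1, the gene of interferon beta, was at 13.6 CPM (9.55 to 18.7) in monocyte-like cells of PBS and 100 CPM (89.8 to 111) in cmExoaCD11b, in 10 of 234 and 31 of 256 cells. In macrophage-like cells it was at 53.4 and 195 CPM, in 28 of 290 and 12 of 91 cells, and in cDC-like cells it was lower, at 223 and 121 CPM, in 9 of 39 and 18 of 79 cells. The top 5 cells held 57.1% to 91.7% of the Ifnb1 UMIs in these classes, and empty droplets had 33.2 and 34.6 CPM. Ifng, the gene of interferon gamma, was at 538 and 593 CPM in CD8 T cell-like cells, a ratio of 1.10 (0.995 to 1.22), and was counted in 63 of 145 and 195 of 342 of them. In other T cell-like cells it was higher in cmExoaCD11b, at 316 (266 to 372) and 477 CPM (438 to 518). CD4 T cell-like cells had 315 and 378 CPM and NK cell-like cells 480 and 561 CPM, with overlapping intervals. Ifnl3 had 0 UMIs in both neutrophil-like classes and in monocyte-like, macrophage-like and CD8 T cell-like cells.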

How the data were processed

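The deposited files hold raw UMI counts per gene and barcode for 2 droplet libraries (10x Genomics), empty droplets included. The authors made these counts with Cell Ranger, version 7.1.0 per the file headers and another version per the methods of the study, and the genome build is not given in the sources used here.

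Barcodes were called as cells above the 99th percentile of the 3000 largest divided by 10, or, from 500 UMIs, when a multinomial test with 10000 simulations separated them from empty droplets (false discovery rate 0.01). Barcodes with fewer than 200 genes or over 20% mitochondrial UMIs were left out. Scrublet's automatic threshold marked 0 cells, so the highest scores were removed up to 0.8% per 1000 cells (5.79% of PBS and 6.00% of cmExoaCD11b cells). A marker was counted when its UMIs exceeded 10% free RNA (Poisson tail under 0.01), and a cell took the class with most of its markers counted, at least 2 and at least 1 more than any other. CPM were counts over all UMIs of a class. No test between treatments was run with 1 library each, and p-values are not given. Named were the 10 genes, the 2 largest and 2 smallest ratios among the 34 interferon-stimulated genes in each class, and the 3 genes most like each member, among those with at least 200 UMIs; genes of a context list (interferons, receptors, sensors, other Ifitm genes) were chosen after their values were seen. The members and lists were chosen with earlier results of these data known. Some named items are not reported here. Another 10 settings, and 4 added after seeing the data, were tried. The code was tested on simulated counts. Python 3.11.15, numpy 2.4.6, scipy 1.17.1 and scanpy 1.11.5 (Scrublet) were used.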

Additional observations from a re-analysis of the deposited data

Results flagged for a closer look

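Several genes were beyond their counting interval in opposite directions in different classes, and these differences were not tested. Ifitm1 was lower in cmExoaCD11b in cDC-like cells (ratio 0.628) and in epithelial cell-like cells (0.835), while it was higher in 8 classes, such as mature neutrophil-like cells (1.53). The epithelial cell-like ratio was 1.64 in thinned cells, and 5 cells held 65.6% of its Ifitm1 UMIs in PBS and 84.1% in cmExoaCD11b. In plasma cell-like cells, Ifitm3 (0.695), Ifitm6 (0.326) and Bst2 (0.833) were lower, although Ifitm3 was higher in 9 classes, Ifitm6 in 7 and Bst2 in 10. The plasma cell-like class held neutrophil RNA in unequal amounts, with S100a8 at 4269 CPM in PBS and 1302 CPM in cmExoaCD11b. Under other settings its ratios reached 1.27 for Ifitm3 and 1.60 for Ifitm6, and 5 cells held 70.4% of its Ifitm3 UMIs in PBS. Among the 7 classes with higher Ifitm6, the B cell-like, CD8, CD4 and other T cell-like ones were at or below a 10% share of free RNA in both libraries.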

How the results depend on the processing

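No paired analysis was possible because each treatment is 1 library and the pools are of different mice. For the same reason no replicate could be left out. Of 254 class counts recomputed under the alternatives, 234 stayed within 1.5 times the reported count. Levels and ratios moved more often. Of 2064 recomputed levels, 1447 were classed as the same and 617 as moved. Of 951 recomputed ratios, 755 were the same, 193 moved and 3 reversed. Under all alternatives that gave a value, 73 of the 86 ratios stayed on their side of 1. In the neutrophil-like, monocyte-like and macrophage-like classes this held for 29 of 32, the exceptions being Ifitm1, Ifitm2 and Ifitm6 of macrophage-like cells.

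When cells were called by the ranked-UMI cut-off only, B cell-like cells had 2 genes at least 2-fold higher and 1 at least 2-fold lower, and Ifitm6 turned to 0.547 in CD8 T cell-like cells. With no doublets removed, B cell-like cells had 1 higher and 1 lower, CD4 T cell-like cells 2 higher, and Ifitm6 was 0.707 in CD8 T cell-like cells. With 20% free RNA in the gate, plasma cell-like cells had 0 lower, since Ifitm6 turned to 1.60. With free RNA subtracted, 1 gene was lower in cDC-like cells, 2 of 2 were higher in B cell-like cells, and plasma cell-like cells had 1 higher and 3 lower. With cells thinned to 1000 UMIs, the counts of higher genes were 3 of 7 in monocyte-like, 1 of 5 in cDC-like, 1 of 4 in B cell-like, 3 of 7 in CD8 T cell-like, 0 of 3 in epithelial cell-like and 0 of 2 in plasma cell-like cells, where 0 were lower. With at least 50 UMIs, 1 of 6 was higher in cDC-like and 0 of 5 in epithelial cell-like cells. Without cells with a second class, an alternative chosen after seeing the data, 2 were higher in monocyte-like cells. Fewer genes reach 20 UMIs after thinning, and otherwise the cause was not tested. Some alternatives left under 30 cells in cDC-like, other T cell-like, plasma cell-like or epithelial cell-like cells and gave no value. Median-ratio scaling moved ratios by factors from 0.878 to 1.02 and changed no class count by more than 1.5 times. Genes with fewer than 20 UMIs in a class were not read for a 2-fold difference. A class count can stay the same while its genes change: in mature neutrophil-like cells it was 4 with the ranked-UMI cut-off only, with Bst2 (2.36) in place of Ifitm6 (1.66).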

Other observations

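The sensor and receptor genes upstream of the antiviral genes were read in the same way. In monocyte-like cells the STING gene Tmem173 was at 30.4 CPM in PBS and 65.3 CPM in cmExoaCD11b (ratio 2.14, 1.66 to 2.79), and the DNA sensor Cgas at 12.8 and 40.0 CPM (3.11, 2.14 to 4.65). The interferon receptor gene Ifnar1 was lower there, at 85.4 and 57.2 CPM (0.670, 0.552 to 0.813), while Ifnar2 was level (0.931, 0.846 to 1.02). In macrophage-like cells Ifnar1 (1.02) and Ifnar2 (1.00) were level and Tmem173 had a ratio of 1.33 (0.892 to 1.94).

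Ifitm5, a family member known from bone-forming cells, was counted in neutrophil-like cells at 2.09 and 5.55 CPM in the mature class (23 and 50 UMIs, ratio 2.65) and at 0.316 and 1.60 CPM in the immature class (6 and 52 UMIs, ratio 5.08). Ifitm7 had 0 UMIs in both neutrophil-like classes.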
